A study of Bos taurus with 12 samples.

Results

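The 5 genes read here belong to the vascular endothelium and its main growth signals, measured in the lining of the cow uterus: the ligand VEGFA, its receptors KDR and FLT1, the angiopoietin receptor TEK and the junction protein PECAM1. They were found by their gene names and accessions on the array, and all 5 had a probe. These were 8 of the 15208 non-control probes, and the 5 genes were among 6712 genes that could be named. KDR, FLT1 and VEGFA had 2 probes each, and the brightest probe stood for the gene. Endometrium was biopsied from cows of the Japanese-Black breed at day 15 of their cycle. The 12 arrays, each of 1 colour, fell into 4 groups of 3: the horn next to the ovary with the corpus luteum (CL side) in summer, the opposite horn (non-CL side) in summer, the CL side in autumn and the non-CL side in autumn. Summer meant early September and autumn mid-November, over 2 consecutive years, and no label ties an array to a year. The breed, cycle day and method of sampling were shared by all groups, and no treatment is named. The labels do not say whether replicates were separate cows, so p-values measure only the spread between these samples.

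VEGFA is a secreted growth factor that makes endothelial cells divide, migrate and loosen their junctions. KDR (VEGF receptor 2) carries most of that signal, whereas FLT1 (VEGF receptor 1) binds VEGFA tightly, signals weakly and also exists as a soluble form that traps the ligand. TEK (TIE2) receives the angiopoietins, which steady or unsettle the contact between endothelial cells and the supporting pericytes, and PECAM1 (CD31) holds endothelial cells together at their junctions and is carried by platelets and leukocytes as well. In the endometrium these signals are known for the growth and regression of vessels in each cycle and for preparing the tissue for an embryo. In whole biopsies, fewer endothelial cells and less RNA per cell cannot be told apart.

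The probes that give every value below are 60 bases long and their sequences were taken from the deposited files, written 5′ to 3′. They show what each gene's signal rests on. For the brightest probe of each gene the last 30 bases are shown, because some of these probes may lie in untranslated sequence. The TEK and FLT1 probes hold a stop codon in all 3 reading frames as written, which is the case for 20.3% of all 15208 probes. Capitals mark AATAAA, the usual signal for adding a poly(A) tail, which is in the TEK probe alone among these 8 as written and in 11.3% of all probes. The opposite strand of the VEGFA probe ABR7080 also holds it, as does that of 4.14% of all probes.
VEGFA probe ABR7080: gagagttttatttctgggattcctgtagac
KDR probe ABR2024: aacaaaggtcataatgcttttagcaattga
FLT1 probe ABR2045: acaacgaaggaatacagatatctcttacag
TEK probe ABR1287: tatagtaagtgAATAAAtgtcttgcctacc
PECAM1 probe ABR1086: gggctggttagtttccacacagctgctcca

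The second probes of the 3 genes that had one are given whole, since their reading of the groups is compared with that of the brightest probes. Each leaves at least 1 reading frame open over its full length.
VEGFA second probe ABR7085: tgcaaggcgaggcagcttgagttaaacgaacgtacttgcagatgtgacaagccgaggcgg
KDR second probe ABR1800: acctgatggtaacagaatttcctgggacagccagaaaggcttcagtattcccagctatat
FLT1 second probe ABR7077: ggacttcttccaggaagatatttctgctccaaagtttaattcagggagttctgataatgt

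Levels are given on the log2 scale relative to the 75th percentile of each array's signals, so that 0 equals that percentile. Levels of different probes have no common scale and are not set against each other. The 75th percentile lay between 3516 and 4418 signal units on 11 arrays. It was 2007 on replicate 2 of the CL side in summer, which is named the dim array below. Its median correlation with the other arrays was 0.928, against at least 0.970 for any pair among the other 11. The share of probes above background by the scanner's own criterion (well above background) was 79.2% to 84.1% per array. All 6 summer arrays and replicate 1 of both autumn groups were on slide 1, and the remaining 4 autumn arrays were on slide 2. Season is therefore partly bound to slide. Of 7 endometrial markers, 6 had a probe and 5 of these were well above background on every array. That was the case for 11189 of all 15208 probes, so the count does not check the tissue.

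None of the 5 genes passed the test in any of the 7 comparisons, and none had groups that did not overlap in any comparison of 2 groups. Each brightest probe was well above background on 12 of 12 arrays, as were 11189 of all 15208 probes. The calls were read against the whole array, where limma with Benjamini-Hochberg adjustment called 0% of the probes in each of the 7 comparisons at an adjusted p below 0.05. At an unadjusted p below 0.05, limma counted 9.92% of 12381 probes for season on the CL side, 1.12% for season on the non-CL side, 1.41% for side in summer and 1.86% for side in autumn. The same share was 1.88% for the season by side interaction, 4.02% for season over both sides and 1.66% for side over both seasons. With same-numbered horns paired, the number of probes at that unadjusted level was 422 in place of 175 for side in summer, 526 in place of 230 for side in autumn, 548 in place of 233 for the interaction and 452 in place of 205 for side over both seasons. Groups did not overlap for 12.9% of probes for season on the CL side, 6.03% for season on the non-CL side, 3.5% for side in summer and 7.85% for side in autumn. Of the members, 0 reached an unadjusted p below 0.05 in any comparison, and the smallest was 0.074 by limma, for TEK between sides in summer. With the horns paired it was 0.068 there, and no member was called.

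**Figure D1:**
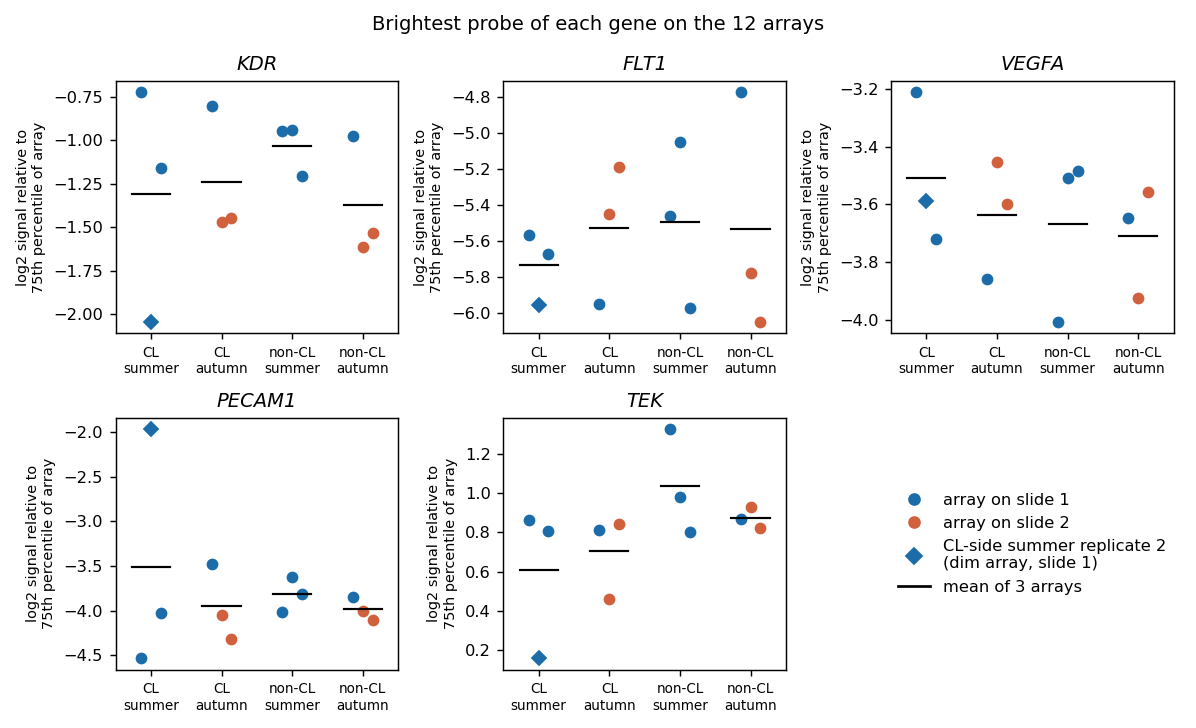
Log2 signal relative to each array's 75th percentile (vertical axis, a separate range for each gene) of the brightest probe on every array, by group; blue and orange points are arrays on slides 1 and 2, the diamond is the dim array and the bar is the mean of 3 arrays. The groups overlap for all 5 genes, the diamond is the lowest KDR and TEK value and the highest PECAM1 value, and the 4 orange KDR points lie between −1.61 and −1.45.

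VEGFA, the ligand, varied least of the 5 genes across the 12 arrays, over 0.80 on the log2 scale, with a median at 8.29% of the array's 75th percentile. Its level was −3.21, −3.59 and −3.72 on the CL side in summer and −3.86, −3.45 and −3.60 on the CL side in autumn. On the non-CL side it was −4.01, −3.51 and −3.48 in summer and −3.65, −3.93 and −3.56 in autumn. The 4 groups overlap, and the dim array, at −3.59, is the 6th highest of the 12. The season change, summer minus autumn, was 0.13 ± 0.20 (log2, SE) on the CL side, with a 95% confidence interval of −0.32 to 0.58, and 0.04 ± 0.20 on the non-CL side, with an interval of −0.41 to 0.50. With slide as a block these were 0.21 and 0.12. Between horns, the change, CL minus non-CL side, was 0.16 ± 0.20 in summer and 0.07 ± 0.20 in autumn. By same-numbered pairs, VEGFA was lower on the CL side in 4 of 6, by −0.08 and −0.24 in summer and by −0.21 and −0.04 in autumn. The other pairs differed by 0.80 in summer and 0.47 in autumn. The interval for season over both sides, −0.20 to 0.38, was the narrowest of any member and comparison. The second VEGFA probe followed the first over the 12 arrays (Pearson r = 0.72, over arrays that share slides and scaling) and gave a season change of 0.01 ± 0.33 on the CL side and 0.13 ± 0.33 on the non-CL side.

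KDR, the main signalling receptor, had a median level at 44.1% of the 75th percentile. On the CL side it was −0.73, −2.04 and −1.16 in summer and −0.81, −1.47 and −1.45 in autumn. On the non-CL side it was −0.95, −0.94 and −1.20 in summer and −0.98, −1.61 and −1.53 in autumn. The lowest value is that of the dim array, and the 4 next lowest are the 4 arrays of slide 2. The 5 summer arrays other than the dim one read −1.20 to −0.73, a range that holds both autumn arrays on slide 1, at −0.98 and −0.81. The season change was −0.07 ± 0.32 on the CL side and 0.34 ± 0.32 on the non-CL side, with unadjusted p = 0.838 and 0.314 by limma. With slide as a block these became −0.48 ± 0.34 and −0.07 ± 0.34, and over both sides the change was −0.28 ± 0.29 with the block and 0.14 ± 0.25 without it. Without the dim array, the season change on the CL side was 0.30. What part the slide and the dim array had in these changes was not tested.

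Between same-numbered horns, the brightest KDR probe was higher on the CL side in 5 of 6 pairs. It was so by 0.22 and 0.04 in summer and by 0.17, 0.14 and 0.08 in autumn. The remaining pair, that of the dim array, differed by −1.1005. As groups, the side change was −0.28 ± 0.32 in summer and 0.13 ± 0.32 in autumn, and 0.09 in summer without the dim array. None of these passed the test, and the interaction of season and side was −0.41 ± 0.46 (adjusted p = 0.999 by limma).

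The second KDR probe did not follow the first over the arrays (r = −0.08). On the CL side it read −4.95, −5.24 and −4.68 in summer and −5.66, −4.82 and −4.80 in autumn. On the non-CL side it read −5.14, −4.16 and −4.19 in summer and −5.78, −4.98 and −4.73 in autumn. Here the 2 autumn arrays of slide 1 hold the lowest values of the 12, −5.78 and −5.66, while the 4 autumn arrays of slide 2 lie higher, between −4.98 and −4.73. The first probe orders the same 6 autumn arrays the other way round. The season change of the second probe on the non-CL side was 0.67 ± 0.36 with an unadjusted p of 0.092 by limma, which did not pass after adjustment (adjusted p = 1). By same-numbered pairs the second probe was higher on the CL side in 3 of 6 and lower in 3. Its side change was −0.46 ± 0.36 in summer and 0.07 ± 0.36 in autumn.

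**Figure D2:**
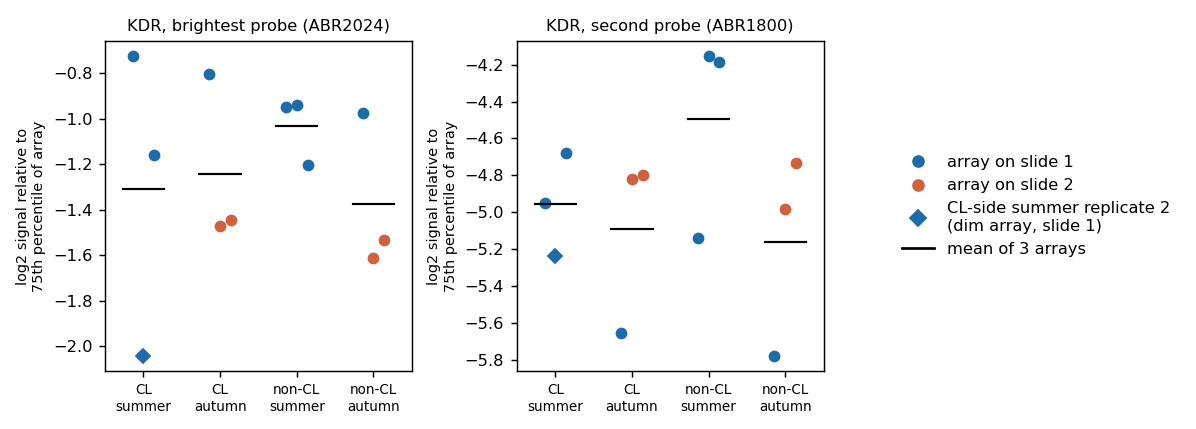
Log2 signal relative to each array's 75th percentile (vertical axis) of both KDR probes on every array, by group; blue and orange points are arrays on slides 1 and 2, the diamond is the dim array and the bar is the mean of 3 arrays. In autumn the slide 2 arrays lie below the slide 1 arrays for the brightest probe (−1.61 to −1.45 against −0.98 and −0.81) and above them for the second probe (−4.98 to −4.73 against −5.78 and −5.66).

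FLT1, the VEGFA-binding receptor of weak kinase activity, had a median level at 2.04% of the 75th percentile. It read −5.57, −5.96 and −5.67 on the CL side in summer and −5.95, −5.45 and −5.19 on the CL side in autumn. For the non-CL side the values were −5.46, −5.05 and −5.97 in summer and −4.78, −5.78 and −6.05 in autumn. Highest and lowest are both arrays of the non-CL side in autumn, so that this group alone spans the range of all 12. Season changes were −0.20 ± 0.35 on the CL side (interval −0.97 to 0.57; −0.09 without the dim array and −0.37 with slide as a block) and 0.04 ± 0.35 on the non-CL side (−0.73 to 0.81). For side they were −0.24 ± 0.35 in summer and 0.00 ± 0.35 in autumn. Same-numbered horns gave CL minus non-CL differences between −1.17 and 0.86, with 3 of 6 above 0. The second FLT1 probe was well above background on 7 of the 12 arrays, did not reach that level on all arrays of any group, and was not tested. Its highest values were −5.77 and −6.03, of non-CL-side summer replicates 2 and 3, and it was at the floor of −7.28 on 4 arrays, 2 of them of the CL side in autumn.

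TEK, the angiopoietin receptor, read above the 75th percentile on every array, with a median of 1.78 times that percentile. On the CL side its level was 0.87, 0.16 and 0.81 in summer and 0.81, 0.46 and 0.84 in autumn. On the non-CL side it was 1.33, 0.98 and 0.80 in summer and 0.87, 0.93 and 0.82 in autumn. The lowest value is that of the dim array and the highest that of non-CL-side summer replicate 1, while the 3 non-CL-side autumn arrays lie between 0.82 and 0.93. The side change of TEK was the member change with the smallest p: −0.43 ± 0.22 in summer, with an interval of −0.90 to 0.05 (unadjusted p = 0.074, adjusted p = 0.984 by limma). It was −0.17 ± 0.22 in autumn and −0.30 ± 0.15 over both seasons (unadjusted p = 0.078, adjusted p = 0.999 by limma). Without the dim array, these were −0.20 in summer and −0.18 over both seasons. By pairs, the CL side was lower in 4 of 6, by −0.46 and −0.82 in summer and by −0.06 and −0.47 in autumn, and the other two pairs differed by 0.01 and 0.02. For season the changes were −0.10 ± 0.22 on the CL side (0.13 without the dim array) and 0.16 ± 0.22 on the non-CL side.

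PECAM1, the junction adhesion molecule, had a median at 6.21% of the 75th percentile. On the CL side it was −4.54, −1.96 and −4.03 in summer and −3.48, −4.05 and −4.32 in autumn. On the non-CL side it was −4.02, −3.62 and −3.81 in summer and −3.85, −4.00 and −4.11 in autumn. The dim array is the highest, at −1.96, and the other 11 lie between −4.54 and −3.48. The season change on the CL side was 0.44 ± 0.53, with the widest interval of the 5 genes, −0.73 to 1.61. It was −0.33 ± 0.26 without the dim array, when the standard error of FLT1 was the larger, at 0.39, and 0.14 ± 0.66 with slide as a block. The side change in summer was 0.31 ± 0.53, and −0.46 without the dim array. By same-numbered pairs over both seasons, PECAM1 was lower on the CL side in 4 of 6. In the non-CL horn the season change was 0.17 ± 0.53, or −0.14 with slide as a block. Its standard error pools the spread of all groups and so includes the dim array, without which the change was 0.17 ± 0.23.

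Since leukocytes and platelets also carry PECAM1, their markers were read beside it. Of 15 such markers, 10 had a probe and 9 were tested, and all 10 were well above background on at least 1 array. Their mean deviation from each gene's average (log2) was 0.25 to 0.39 on the CL side in summer, against −0.28 to −0.01 on the non-CL side in summer, −0.12 to 0.11 on the CL side in autumn and −0.43 to −0.07 on the non-CL side in autumn. Their summed signal, as a multiple of the 75th percentile, was 2.41 to 3.23 on the CL side in summer and 1.40 to 2.20 over the other 3 groups. The dim array had the highest mean deviation and the highest sum. S100A8, a protein of neutrophils and monocytes, was the 1 tested marker with an unadjusted p below 0.05 for season on the CL side. That level was reached by 9.92% of all probes there. The S100A8 change was 1.99 ± 0.47 there and 2.13 ± 0.47 for side in summer, the largest of the 9 markers in both. The median change of the 9 was 0.12 and 0.31, and the mean deviation above includes S100A8. PTPRC, the common leukocyte antigen, was well above background on 8 of 12 arrays. Of 5 red blood cell markers with a probe, 2 were well above background on every array and HBA alone was so on none. The part of these cells in the PECAM1 signal was not tested.

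**Figure D3:**
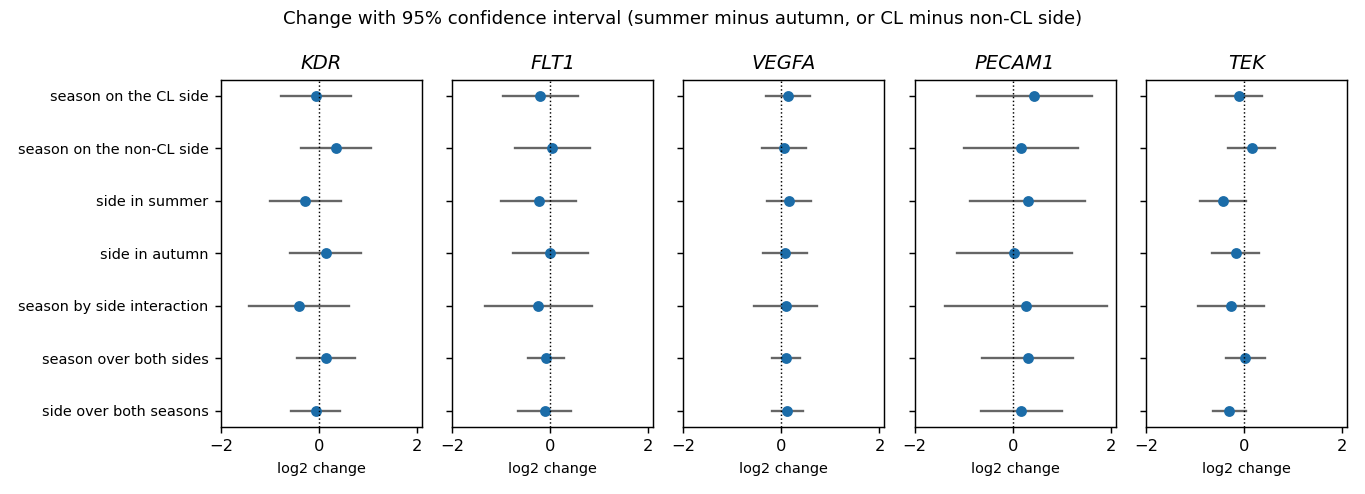
Log2 change (horizontal axis) of the brightest probe of each gene in the 7 comparisons, as summer minus autumn or CL minus non-CL side, with limma's 95% confidence interval as a line. Every interval includes 0; those of VEGFA are the narrowest, reaching 0.29 to 0.64 on either side of the change, and those of PECAM1 the widest, reaching 0.83 to 1.66. That rank rests on the dim array, without which the standard errors between 2 groups were 0.23 to 0.26 for PECAM1 and 0.35 to 0.39 for FLT1.

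In order of group means, TEK ran from the non-CL side in summer at 1.04 ± 0.27 (SD, n = 3 each), the non-CL side in autumn at 0.87 ± 0.06 and the CL side in autumn at 0.71 ± 0.21 to the CL side in summer at 0.61 ± 0.39. KDR ran from the non-CL side in summer at −1.03 ± 0.15, the CL side in autumn at −1.24 ± 0.38 and the CL side in summer at −1.31 ± 0.67 to the non-CL side in autumn at −1.37 ± 0.35. For both receptors each step between neighbours was smaller than the larger SD of the pair. FLT1 ran from −5.50 ± 0.46 on the non-CL side in summer to −5.73 ± 0.20 on the CL side in summer, with both autumn groups at −5.53. VEGFA and PECAM1 differed from each other in the order of the middle groups alone: the highest mean was that of the CL side in summer (−3.51 ± 0.26 and −3.51 ± 1.36) and the lowest that of the non-CL side in autumn (−3.71 ± 0.19 and −3.99 ± 0.13). For these 3 genes too, each step was smaller than the larger SD of the pair. For PECAM1, KDR and TEK the place of the CL side in summer turns on the dim array. Over the other 2 arrays of that group the mean was −4.28 for PECAM1, then the lowest of the 4 groups, and −0.94 for KDR, then the highest. It was 0.84 for TEK, then above the CL side in autumn. For VEGFA the group stayed the highest, at −3.47, and for FLT1 the lowest, at −5.62. All 5 members had a season change above 0 on the non-CL side, between 0.04 and 0.34, where 49.9% of all probes did. Only 2 of 5 did on the CL side, between −0.20 and 0.44, where 53.0% of all probes did. With slide as a block, KDR, FLT1 and PECAM1 were below 0 on the non-CL side.

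The other ligands and receptors of the VEGF family did not pass the test either. Of 7, NRP1 had no probe here, and FLT4, the receptor of VEGFC and VEGFD on lymphatic vessels, was well above background on 5 of 12 arrays and was not tested. VEGFB, a ligand of FLT1, lay between 0.97 and 1.45 on all arrays, and its change with the smallest p was 0.13 ± 0.16, between sides in autumn. VEGFC, a lymphatic growth factor, averaged −0.90 in summer, against −1.25 in autumn, in the non-CL horn, a season change of 0.35 ± 0.18 (unadjusted p = 0.079, adjusted p = 1 by limma) that was 0.56 with slide as a block. VEGFD, of the same kind, had a log2 change of −0.64 ± 0.54 between sides in autumn, and NRP2, a co-receptor, one of 0.60 ± 0.66. The values of these 4 genes overlap between the groups of each 2-group comparison.

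PGF, the placental member of the family and a ligand of FLT1, had the largest change among the tested family genes, −1.54 ± 0.78 for season on the CL side (unadjusted p = 0.074, adjusted p = 0.505 by limma). Its values were 1.12, −2.30 and 1.57 on the CL side in summer and 1.60, 1.62 and 1.79 on the CL side in autumn. The other 11 arrays lie between 1.12 and 2.23, and without the dim array the change was −0.32. On the non-CL side PGF was 1.25, 1.60 and 1.69 in summer and 2.23, 1.78 and 1.77 in autumn, a change of −0.41 ± 0.78. Summer and autumn do not overlap on either side, with summer the lower. Groups did not overlap for 12.9% of all probes on the CL side and 6.03% on the non-CL side. FLT4 was highest on the dim array, at −3.19, while 8 of 12 arrays were at the floor of the scale and the highest other value was −6.41. On the CL side it was well above background on no autumn array. Its summer values there were −7.28, at the floor, −3.19 and −7.26. The summer mean was 2.58-fold the autumn one, a value that rests on the dim array and on floored arrays. It is no lower bound and was not tested.

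Among the angiopoietin genes, ANGPT4 had no probe here and 5 were tested. ANGPT1, the ligand that activates TEK, was −6.73, −6.48 and −7.28 on the CL side in autumn and −5.56, −5.42 and −6.61 on the non-CL side in autumn. Its side change in autumn was −0.96 ± 0.35 (unadjusted p = 0.019, adjusted p = 1 by limma), with groups that overlap and 10 of 12 arrays well above background. The value of −7.28 is the floor. ANGPT1 was kept in the fit only through the non-CL side, the higher one here, where every array was well above background. The p-value is therefore no support for a side difference. In the authors' own deposited values the same change was 0.29. ANGPT2, which can oppose ANGPT1, had its smallest p for season on the CL side, with a change of 0.39 ± 0.36 that was 0.0070 with slide as a block and 0.15 without the dim array. TIE1, the partner receptor of TEK, lay between −4.48 and −3.20, with the dim array the highest, and the change with its smallest p was 0.06 ± 0.32, between sides in autumn. PTPRB, the phosphatase that restrains TEK, had a side change of −0.59 ± 0.30 in summer, and of −0.17 without the dim array, its lowest value. ANGPTL4, a secreted inhibitor of lipoprotein lipase, had one of −0.51 ± 0.39, and of −0.14 without the dim array. For season on the non-CL side PTPRB and ANGPTL4 did not overlap between summer and autumn, with changes of 0.19 ± 0.30 and 0.49 ± 0.39, beside 6.03% of all probes without overlap there.

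**Figure D4:**
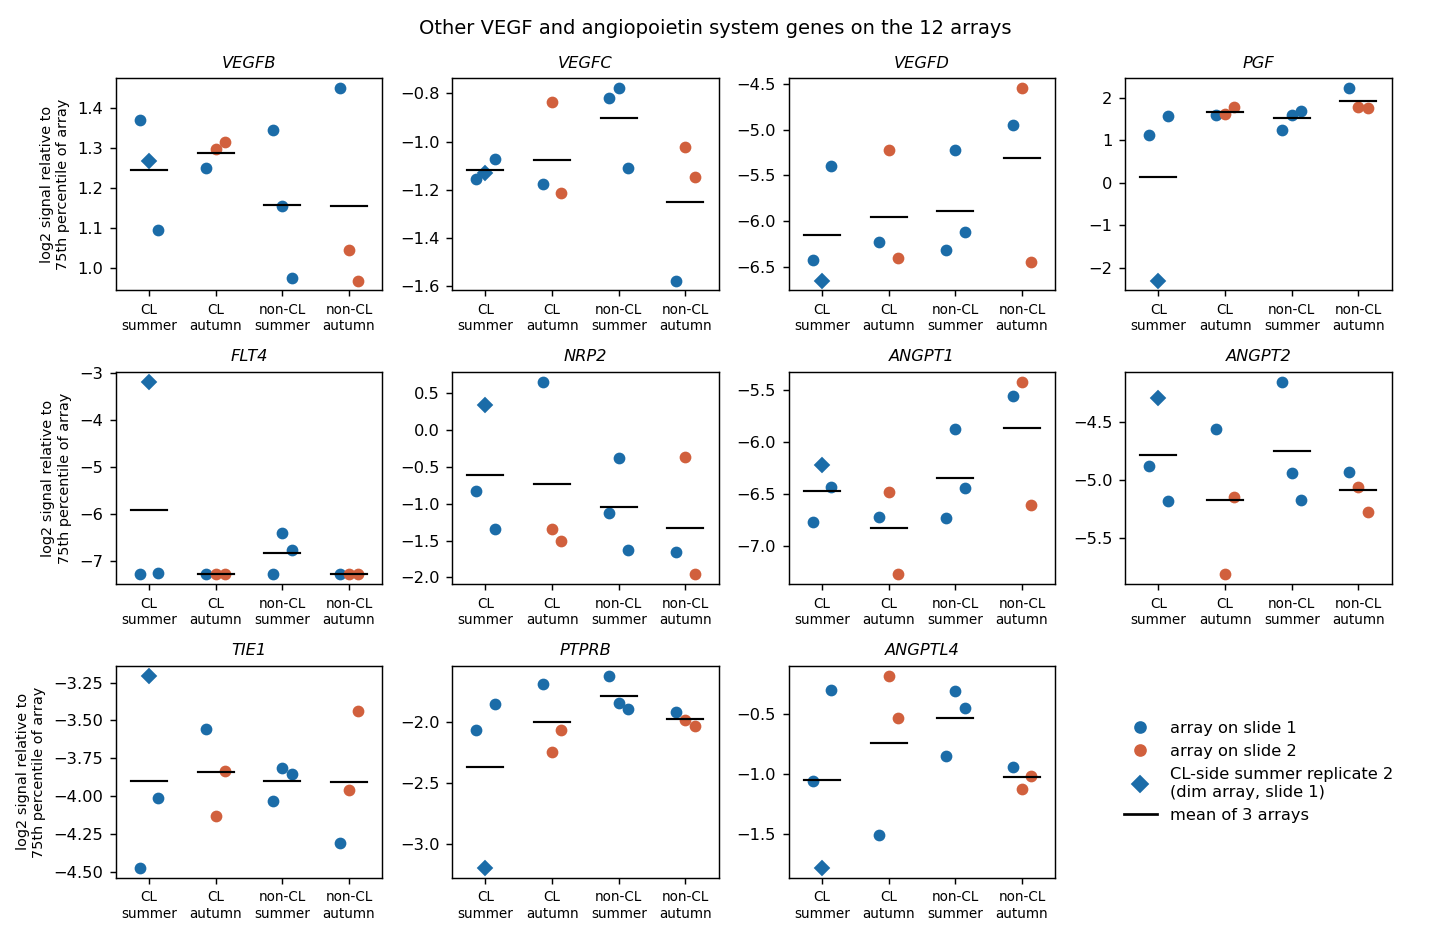
Log2 signal relative to each array's 75th percentile (vertical axis, a separate range for each gene) of the other VEGF and angiopoietin genes on every array, by group; blue and orange points are arrays on slides 1 and 2, the diamond is the dim array and the bar is the mean of 3 arrays. The diamond is the lowest PGF, PTPRB, ANGPTL4 and VEGFD value and the highest FLT4 and TIE1 value, and PGF on the other 11 arrays lies between 1.12 and 2.23.

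A list of 36 endothelial markers, none of them a member, was read beside the 5 genes. Of these, 23 had a probe, all 23 were tested and 22 were well above background on every array. So were 11189 of the 12404 kept probes, and the count does not check the tissue's vessels. Among the 22 were CDH5 (the junction cadherin of endothelium), VWF (a clotting factor stored in endothelial cells) and ERG (an endothelial transcription factor). CLDN5 and EMCN had no probe here. None passed after adjustment. For season on the non-CL side 22 of the 23 had a change above 0, with a median of 0.22, beside 49.9% of all probes. With slide as a block 18 of 23 did, and on the first slide alone 17 of 23. For season on the CL side 12 of 23 did, with a median of 0.01, beside 53.0% of all probes, and 7 of 23 without the dim array. All 23 markers were read on the same arrays, so their directions are not independent. Between sides in summer, 8 of 23 were above 0, beside 48.9% of all probes. Without the dim array 2 of 23 were, with a median of −0.12, when 46.4% of all probes were above 0. In autumn 15 of 23 were above 0, with a median of 0.11, beside 42.6% of all probes. Stromal markers were above 0 in 0 of 10 in summer and 10 of 10 in autumn, and epithelial markers in 6 of 7 and 1 of 7; their part was not tested.

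The named endothelial markers of the season comparison on the CL side were those with the smallest p. THBD, an anticoagulant receptor, changed by 0.81 ± 0.31, CD34, a surface sialomucin, by 0.61 ± 0.24, and ESAM, a junction protein, by 0.41 ± 0.21. Without the dim array these were 0.39, 0.36 and 0.16. THBD and CD34 were the 2 of 23 with an unadjusted p below 0.05 by limma there, beside 9.92% of all probes. Of the 23 markers, 11 changed below 0 there, the lowest by −0.96. SELP, which captures leukocytes at the vessel wall, read 0.37 to 0.54 on the non-CL side in summer and −0.36 to −0.03 in autumn, groups that do not overlap, as was the case for 2 of the 23 there and for 6.03% of all probes. That season change was 0.65 ± 0.29 (adjusted p = 1 by limma). The SELP change on the CL side was −0.51 ± 0.29, and SELP was the 1 marker of 23 with an unadjusted p below 0.05 in the season by side interaction, −1.16 ± 0.42 (unadjusted p = 0.019, adjusted p = 0.999 by limma), beside 1.88% of all probes. Without the dim array these were −0.16 and −0.81. SELP is singled out here after its values were seen. SELE, a related selectin well above background on 11 of 12 arrays, had a season change of 2.138 ± 1.0997 on the non-CL side. CAV1, the coat protein of caveolae, had a side change of 0.51 ± 0.27 in autumn, and SELP one of −0.69 ± 0.29 in summer, or −0.33 without the dim array.

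**Figure D5:**
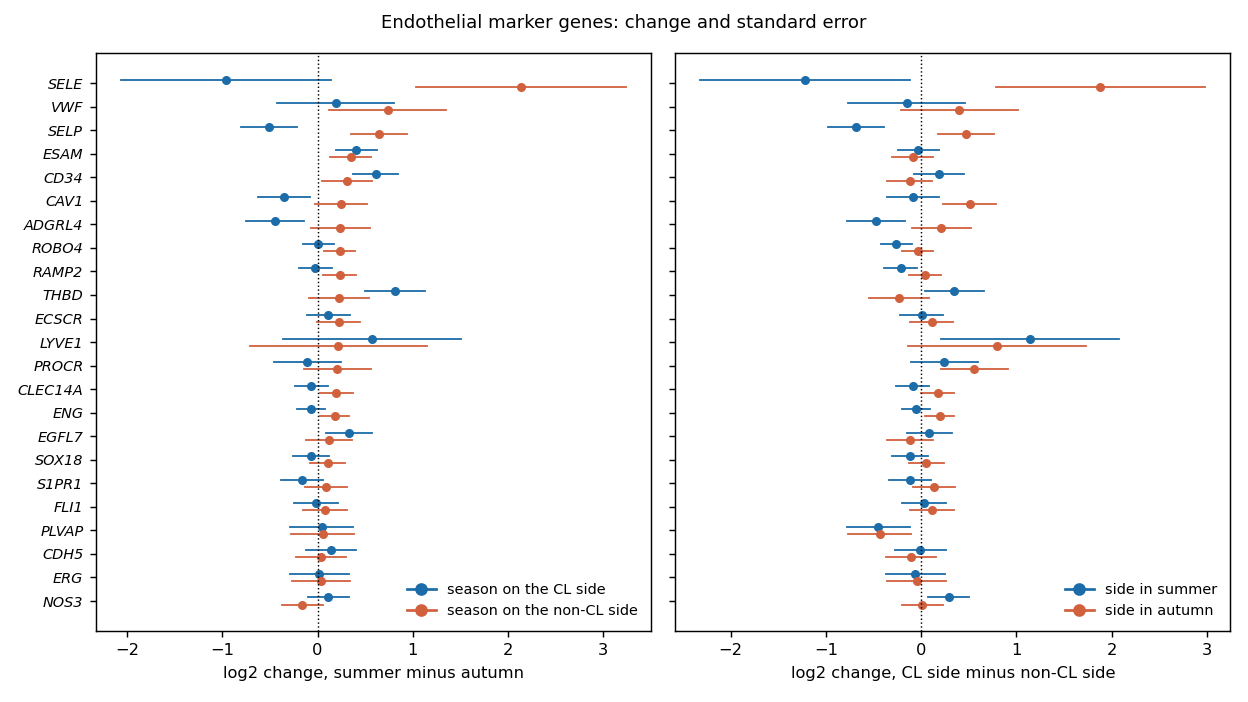
Log2 change with its standard error (horizontal axis) of 23 endothelial marker genes, ordered by the season change on the non-CL side; the left panel shows summer minus autumn on the CL side (blue) and the non-CL side (orange), the right panel CL minus non-CL side in summer (blue) and autumn (orange). On the left, 12 blue and 22 orange points lie above 0; on the right, 8 blue and 15 orange points do.

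Genes that regulate vessel growth from outside the VEGF and angiopoietin systems were read next. Of 15 tested, 13 had a season change above 0 on the non-CL side (9 with slide as a block) and 10 on the CL side (6 with slide as a block). Without the block, 49.9% of all probes did on the non-CL side and 53.0% on the CL side. EDN1, the vasoconstrictor endothelin-1, lay between −2.41 and −1.999 on the non-CL side in summer and between −3.24 and −2.79 in autumn, with no overlap and a change of 0.80 ± 0.32. Its change on the CL side was 0.69 ± 0.32, or 0.42 without the dim array. THBS1, an inhibitor of vessel growth, lay between 1.59 and 2.20 in summer and between 0.82 and 1.42 in autumn on the non-CL side, a change of 0.86 ± 0.37. Both had an adjusted p of 1 by limma, and they were the 2 of 15 without overlap there, beside 6.03% of all probes. CCN1, a matrix protein, had a change of 2.18 ± 1.16 there. For season on the CL side, SERPINF1, an inhibitor of vessel growth, had a change of −0.87 ± 0.38, or −0.37 without the dim array. MET, the hepatocyte growth factor receptor, had one of 0.84 ± 0.43, which was 1.27 with slide as a block and −0.078 in the authors' own deposited values. APLN, a peptide ligand that acts on endothelium, had a side change of −1.30 ± 0.66 in summer, or −0.30 without the dim array.

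Hypoxia is a known inducer of VEGFA, and 15 hypoxia response genes were tested. For season, 9 of 15 were above 0 on the CL side and 8 of 15 on the non-CL side, with medians of 0.06 and 0.04. Of all probes, 53.0% and 49.9% were. The season change on the CL side was −0.78 ± 0.30 for ADM, a vasodilator peptide, 1.08 ± 0.47 for EGLN3, an oxygen-sensing hydroxylase, and 1.06 ± 0.47 for ANKRD37, a hypoxia-induced gene. Unadjusted p was 0.027, 0.043 and 0.045 and adjusted p 0.496, 0.501 and 0.501 by limma. An unadjusted p below 0.05 was reached by 9.92% of all probes there. ADM and ANKRD37 did not overlap between summer and autumn, as 12.9% of all probes there. ALDOC, a glycolytic enzyme, had a side change of 0.35 ± 0.18 in autumn.

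Of the Notch and ephrin genes that pattern vessels 4 were tested, DLL4, HEY1, HEY2 and HES1, with season changes of −0.04 to 0.75 on the CL side and 0.06 to 0.28 on the non-CL side. None had an unadjusted p under 0.1 in a comparison of 2 groups. Of the markers of pericytes and vascular smooth muscle 8 were tested, and 7 of 8 had a season change above 0 on the non-CL side (3 of 8 with slide as a block) and 5 of 8 on the CL side. Without the block, 49.9% and 53.0% of all probes did. The mean deviation of these markers was −0.21 to 0.92 on the CL side in summer and −0.66 to 0.94 on the CL side in autumn, so that groups overlap widely.

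Markers of the other tissue compartments were read beside the season values of the CL side. All 10 of 10 stromal markers had a season change below 0 there, with a median of −1.08, and 8 of them an unadjusted p below 0.05, beside 9.92% of all probes. Without the dim array the median was −0.78 and 7 reached that level, beside 678 of all probes in place of 1228. With slide as a block 5 did. The 9.92% is the share of the main fit alone. Their mean deviation there was −1.35 to 0.19 in summer, the dim array being the lowest, and 0.28 to 0.86 in autumn. Of 7 epithelial markers, 6 had a change above 0, with a median of 0.85 and a mean deviation of −0.18 to 1.28 in summer, the dim array being the highest, against −0.35 to −0.22 in autumn. Between sides in summer, 0 of 10 stromal markers were above 0, with a median of −0.44, or 3 of 10 with −0.09 without the dim array. In autumn 10 of 10 were, with a median of 0.54, 4 of them with an unadjusted p below 0.05 (1.86% of all probes) and 6 without overlap (7.85%). Of the 7 epithelial markers, 6 were above 0 between sides in summer (median 0.44, or 5 with 0.084 without the dim array) and 1 in autumn (median −0.39). For season on the non-CL side, 4 of 10 stromal and 3 of 7 epithelial markers were above 0, with medians of −0.02 and −0.01. Of all probes, 53.0% were above 0 for season on the CL side and 49.9% on the non-CL side. Between sides 48.9% were in summer and 42.6% in autumn. The part of tissue composition in the endothelial values was not tested.

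By Pearson correlation of log2 values over the 12 arrays, the named genes most like each member among 5260 compared were as follows, as a description. KDR was closest to NIPA2 (r = 0.895), HEYL (0.885) and IFITM1 (0.879), and TEK to STK19 (0.94), EPHA4 (0.90) and TMEM199 (0.90). VEGFA was closest to CAPG (0.86), CD40 (0.83) and TSPO (0.82), and FLT1 to ANKFY1 (0.78), MXRA8 (0.77) and DPYSL2 (0.76). PECAM1 was closest to SFRP5 (0.95), NPFF (0.94) and CRYAB (0.94), which were 0.69, 0.77 and 0.65 without the dim array. The arrays share slides, scaling and, for KDR, TEK and PECAM1, the dim array as an extreme. Among the members themselves KDR and TEK correlated at 0.66, or 0.36 without the dim array, and PECAM1 and TEK at −0.64, or 0.05 without it.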

How the data were processed

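Biopsies of 12 uterine horns were each hybridised to a 1-colour Agilent bovine array with Cy3-labelled RNA amplified from 400 ng of total RNA, per the labels. The deposited scanner files hold spot intensity, after subtraction of local background and with no scaling across arrays per the file headers (Feature Extraction 9.5.1.1). The submitters' processing notes name version 9.5. The authors also deposited log2 values, whose columns correlated with the scanner values at 0.962 to 0.990 and ran the same way. Their medians were −2.79 to −2.61 and their 75th percentiles 0.0048 to 0.012, close to the 0 of the scaling used here. The exact scaling step and the treatment of low signals in these values stay unknown. They were used as an alternative.

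Signals were divided by each array's 75th percentile, floored at −7.28 after log2 (2.06% of kept values), and 466 outlier-flagged spots were set missing. Both steps were added when the files were read. A probe was kept where every array of some group had it well above background (12404 kept). limma 3.58.1 in R 4.3.3 fitted 4 group means without a block, with Benjamini-Hochberg adjustment over all kept probes and a threshold of 0.05. For season over both sides, same-numbered horns were averaged first. The script was tested on simulated data. The number of arrays limits the precision.

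Same-numbered horns deviated together, with correlations of deviations from group means of 0.26 to 0.52 in summer and 0.15 to 0.39 in autumn. Between seasons of a side these were 0.11 to 0.35. The numbers were therefore taken as pairs in an alternative. The pairing comes from the data and the shared numbers in the titles. In autumn, replicate 1 of both sides was on slide 1 and replicates 2 and 3 on slide 2. The number is thus partly bound to slide there. Genes were named from the files and RefSeq's gene table of ARS-UCD2.0, names only: 7046 of 15208 probes had a symbol. Named list genes were the members, all VEGF and angiopoietin genes (each in the comparison of 2 groups with its smallest p), and up to 3 genes of each other vessel list with the smallest unadjusted p in a comparison of 2 groups, where it was under 0.1, a limit set after the values were seen. The members and lists were chosen with earlier results of these data known. Promoter sequences were not used here.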

Additional observations from a re-analysis of the deposited data

How the results depend on the processing

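No member passed an adjusted p of 0.05 by limma under any alternative, where the smallest was 0.398, and 6 of 754 recomputed member changes had an unadjusted p below 0.05. These were KDR for season on the non-CL side with probes averaged (0.51), TEK for side in summer without CL-side summer replicate 1 (−0.55) or non-CL-side summer replicate 3 (−0.54) and over both seasons without CL-side summer replicate 1 (−0.36), and FLT1 on the first slide alone for side in autumn (−1.17) and over both seasons (−0.71). Of the 754, 686 kept their direction and 68 did not; of 588 for the other named genes 579 kept it. On the first slide alone each autumn group is 1 array, assumed to vary like the other groups, and the changes that turned were, for season on the CL side, FLT1 0.22, PECAM1 −0.032 and ANGPT2 −0.22; for season on the non-CL side, KDR −0.056, FLT1 −0.72 and VEGFA −0.019; for side in autumn, FLT1 −1.17, VEGFA −0.21, VEGFB −0.20 and ALDOC −0.13; for the interaction, FLT1 0.94 and PECAM1 −0.062; for side over both seasons, VEGFA −0.026. With that slide alone or slide as a block, season over both sides gave KDR −0.28, PECAM1 −0.00077 and TEK −0.017, and the block gave KDR −0.074, FLT1 −0.13 and PECAM1 −0.14 on the non-CL side. Normexp turned FLT1 to 0.058 for season on the CL side, 0.060 over both sides, 0.051 for side in summer and 0.053 over both seasons. The authors' values gave MET −0.078 (season, CL side), FLT1 −0.073 (season, non-CL side), 0.15 (side in summer) and 0.24 (side over both seasons), VEGFD 0.18 and ANGPT1 0.29 (side in autumn). Averaging a gene's probes gave KDR 0.034 (season, CL side) and VEGFA −0.017 (interaction). The cause was not tested.

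Leaving out each array in turn, the changes whose direction turned ranged, for season on the CL side, from −0.36 to 0.30 (KDR), −0.017 to 0.24 (VEGFA), −0.33 to 0.95 (PECAM1) and −0.22 to 0.13 (TEK); on the non-CL side, from −0.22 to 0.42 (FLT1) and −0.063 to 0.21 (VEGFA). For side in summer they ranged from −0.57 to 0.088 (KDR), −0.010 to 0.27 (VEGFA) and −0.46 to 0.82 (PECAM1), and in autumn from −0.086 to 0.33 (KDR), −0.25 to 0.38 (FLT1), −0.034 to 0.19 (VEGFA), −0.20 to 0.22 (PECAM1), −0.093 to 1.08 (NRP2) and −0.14 to 0.29 (TIE1). The interaction ranged from −0.62 to 0.016 (FLT1), −0.084 to 0.19 (VEGFA) and −0.50 to 0.79 (PECAM1). Season over both sides ranged from −0.046 to 0.32 (KDR), −0.28 to 0.11 (FLT1), −0.045 to 0.22 (VEGFA) and −0.10 to 0.17 (TEK), and side over both seasons from −0.22 to 0.11 (KDR), −0.24 to 0.073 (FLT1) and −0.21 to 0.43 (PECAM1). The number of probes called over the whole array ranged from 0 to 7 for season on the CL side, 0 to 6 for side in autumn and 0 to 1 for side in summer, the interaction and side over both seasons, and was 1 for season on the non-CL side on the first slide alone. None of these probes was a member. The counts above 0 came from leaving out CL-side summer replicates 1 (2 probes) and 3 (4) and CL-side autumn replicate 3 (7) for season on the CL side, CL-side autumn replicate 3 for side in autumn, and CL-side summer replicate 3 for side in summer, the interaction and side over both seasons. At an unadjusted p below 0.05, season on the CL side had 678 probes without the dim array, 772 in the authors' values and 707 on the first slide alone, in place of 1228. Season on the non-CL side had 563 with slide as a block and 498 on the first slide alone in place of 139, and side in autumn 354 with no filter on dim probes in place of 230. Leaving out each array in turn gave 678 to 2084 for season on the CL side, 56 to 368 on the non-CL side in place of 139, 77 to 1060 for side in summer in place of 175, 135 to 477 in autumn, 123 to 740 for the interaction in place of 233, 286 to 850 for season over both sides in place of 498 and 121 to 549 for side over both seasons in place of 205.

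The replicate block within a season left the 0 calls of each comparison and changed no call of a member. With it, TEK between sides in summer had −0.43 with adjusted p = 0.810 by limma. Within a season it gave 422, 526, 548 and 452 probes at an unadjusted p below 0.05, in place of 175, 230, 233 and 205, for side in summer, side in autumn, the interaction and side over both seasons. Counts of list genes and SELP changes without the dim array or with slide as a block, and group means without that array, were alternatives chosen after seeing the data.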
